A study of Homo sapiens with 6 samples.

Results

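The genes described here are 10 feedback and transcription factor genes that respond to the extracellular signal-regulated kinase (ERK) pathway. They are the Sprouty genes SPRY1, SPRY2 and SPRY4, the SPRED genes SPRED1, SPRED2 and SPRED3, PHLDA1, and the ETS factors of the PEA3 group, ETV1, ETV4 and ETV5. They were chosen by symbol, with earlier results of these data known, and all 10 were found among the 19973 genes of the deposited table. RNA was sequenced from the ovarian carcinoma line OVCAR3, a long-established human cell line. The cells had been transfected with either shNC, a hairpin without a target, or shNUF2, which targets the NUF2 subunit of the NDC80 kinetochore complex. Both groups received a hairpin plasmid, and the vector named for the NUF2 hairpin carries puromycin resistance. The study made stable NUF2-silenced OVCAR3 cells. For the sequenced cells its methods and the labels speak of transfection, and the legend of its sequencing figure calls them infected. The labels call the shNC cells WT and the shNUF2 cells NUF2 knockdown. There were 3 libraries per group, and a single hairpin was used against NUF2. Nothing in the labels says whether the 3 libraries of a group came from separate cultures or transfections, so that p-values measure only the spread between these libraries, which may be technical.

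In the pathway, receptor tyrosine kinases activate RAS, which passes the signal through RAF and MEK kinases to ERK. Sprouty and SPRED proteins are inhibitors that act on this route and whose genes are themselves switched on by it, so that they form a negative feedback loop. The PEA3 factors are transcription factors whose genes are also induced by the pathway, and PHLDA1 is a pleckstrin homology-like domain protein whose transcript is widely used, with those of SPRY2, SPRY4, ETV4 and ETV5, as a readout of ERK activity.

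The shNUF2 hairpin and promoter windows of the members are shown first, because they define the treatment and the sequence context of the genes measured. The hairpin carries a target of 21 bases that matched the coding sequence of NUF2 within exon 4 (of 14) in NUF2-201, on the plus strand of chromosome 1 of GRCh38 from 163328272 to 163328292. Capitals mark the target.
shNUF2 target: CTTCTTACCATTCAGCAATTT
NUF2 was the only gene (1 gene) of GENCODE release 29 with an exact match to this target in its transcripts. The longest run of target bases in any transcript of a member was 10 bases, in PHLDA1, and the longest runs in the other members were from 6 to 8 bases.

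RefSeq promoter windows on GRCh38.p14, from 250 bases before to 50 bases after a start site, were matched for 8 of the 10 members, in 18 windows. They were searched on both strands for TGAATGAA and TGAATGGA, which the repressor CIC binds, for AGGAAG, a core that ETS factors bind, for TGANTCA, the AP-1 motif, and for GCGTGGGCG, the EGR1 motif. None of these motifs contains another, and those of CIC share their first letters. The following windows are shown because they hold the motifs of CIC or AP-1 starting before the start site, with the match in capitals and 20 bases on either side.
SPRED3, CIC motif, plus strand, chr19:38389579-38389626: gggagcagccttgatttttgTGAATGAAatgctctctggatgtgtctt
SPRED3, AP-1 motif, plus strand, chr19:38389711-38389757: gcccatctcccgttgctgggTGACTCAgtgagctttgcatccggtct
SPRED2, AP-1 motif, minus strand, chr2:65366758-65366804: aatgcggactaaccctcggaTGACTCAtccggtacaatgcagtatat
ETV1, CIC motif, minus strand, chr7:13991523-13991570: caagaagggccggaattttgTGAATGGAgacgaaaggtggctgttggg
TGAATGAA was found in SPRED3 among the members, against 2.03% of all 27305 genes with a window, and TGAATGGA in ETV1, against 1.27%. AGGAAG was found in 6 of the 8 members (ETV1, SPRED1, SPRED2, SPRED3, SPRY1 and SPRY2), against 38.1% of all genes. TGANTCA was found in SPRED2 and SPRED3, against 9.37%, and GCGTGGGCG in 0 of the 8, against 0.96%. SPRY4 and PHLDA1 held none of the 5 motifs in these windows. These matches describe the letters of the windows, and several members have more than 1 window. The 8 members had 18 windows, against 35116 windows for all 27305 genes, so that a member had more windows to match in. Counted by window, AGGAAG was found in 33.6% of all windows.

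The libraries held between 13057534 and 16995452 counted reads. After normalization to CPM, the count relative to the TMM-scaled library total, NUF2 was 65.2 ± 2.94 CPM with shNC and 22.9 ± 2.4 CPM with shNUF2 (SD, n = 3 each), and no shNUF2 library reached the lowest shNC library. Of 10 epithelial and ovarian carcinoma markers, the keratins KRT7, KRT8 and KRT18, the Müllerian factor PAX8 and the surface proteins MUC16 and MSLN were present in all 6 libraries, whereas in any library WT1 had at most 7 reads, KRT19 at most 8, CDH1 at most 33 and EPCAM at most 91. The summed level of these markers was 399 to 425 FPKM (reads per kilobase of gene length, scaled to the library's total) with shNC and 373 to 402 FPKM with shNUF2, a sum of markers that differed in opposite directions. By the adjusted p, 4 of the 8 tested were higher and 3 lower, against 33.9% and 33.8% of all genes. MSLN and MUC16 were both lower with shNUF2, each at a log2 fold change of -0.75 (adjusted p = 2.34e-14 and 1.9e-08 from the edgeR test), as was KRT7 at -0.22 (adjusted p = 0.00174), whereas KRT8 at 1.04, EPCAM at 0.69, PAX8 at 0.64 and KRT18 at 0.55 were higher (adjusted p from 3.22e-17 for KRT8 to 0.00834 for EPCAM). Markers of immune cells summed to 0.431 to 0.883 FPKM with shNC and 1.38 to 2.08 FPKM with shNUF2, and those of endothelial cells to 0.226 to 0.439 and 0.462 to 0.679 FPKM, so that both sums were low and higher with shNUF2 without overlap. Fibroblast markers summed to 9.44 to 10.1 FPKM with shNC and 7.31 to 8.06 FPKM with shNUF2, with COL1A2 and LUM at 2 reads or fewer in every library. This sum was mostly COL1A1, at a mean of 9.19 FPKM with shNC and 6.84 FPKM with shNUF2. COL1A1 was lower at a log2 fold change of -0.39 (adjusted p = 1.23e-06 from the edgeR test), whereas DCN was higher at 1.22. Of the carcinoma, endothelial and fibroblast markers, KRT8, CDH5 and DCN were called higher with shNUF2, where 9.41% of all genes were. DCN had 130 reads or fewer in every library. CDH5 had 1, 1 and 4 counted reads under shNC against 15, 19 and 27 under shNUF2, too few for a firm size. CDH5 thus passed the filter on low counts through its shNUF2 libraries alone. The part of these markers in the results was not tested.

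A gene was called when its log2 fold change between shNUF2 and shNC was above 1 or below -1 with an unadjusted p under 0.05 in edgeR's quasi-likelihood test, the thresholds of the study's methods read on the log2 scale. All 10 members had enough reads to be tested. Of these, 4 were called higher with shNUF2, namely SPRY1, SPRY2, SPRY4 and PHLDA1, against 9.41% of all 12874 genes tested. None (0 of 10) was called lower, against 4.16% of all genes. The members and the gene lists below were chosen with earlier results of these data known. Their counts are therefore not independent evidence of a direction. When only a Benjamini-Hochberg adjusted p under 0.05 in edgeR was asked for, 8 of the 10 members passed (67.6% of all genes), of which 7 were higher (33.9% of all genes) and 1, ETV4, was lower (33.8%). The counts at an unadjusted p under 0.05 were also 7 and 1, against 35.0% and 35.2% of all genes. The normalized counts of the groups did not overlap for any of the 10 members (70.6% of all genes), with shNUF2 above shNC for 8 (35.2%) and below it for 2 (35.4%). The median log2 fold change of the members was 0.69, and that of all genes tested was -0.01. In bulk RNA, fewer cells that express a gene and less RNA per cell cannot be told apart.

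**Figure D1:**
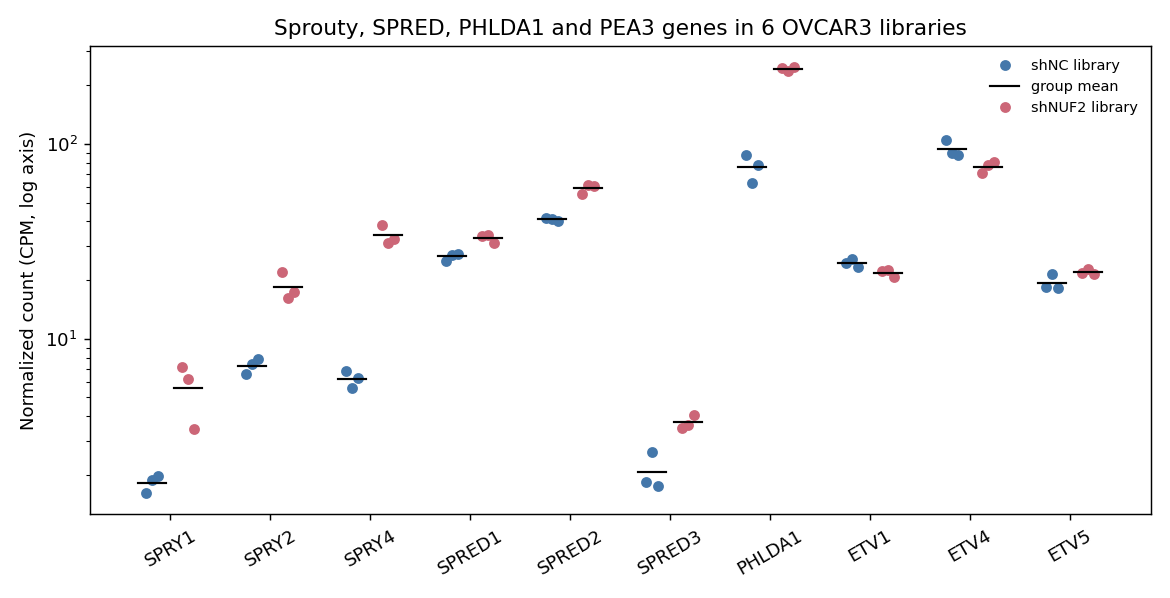
Normalized count (CPM, log axis) of each of the 10 genes in each of the 6 libraries, with points for single libraries and a line for the mean of each group of 3. The Sprouty genes and PHLDA1 stand clearly apart between the groups, whereas those of ETV1, ETV4 and ETV5 lie close together.

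The 3 Sprouty genes were all called higher, and SPRY4 showed the largest difference among the members. SPRY4 (ENSG00000187678, minus strand of chromosome 5 from 142310427 to 142326455), an inhibitor of signaling from receptor tyrosine kinases to ERK, gave 97, 89 and 108 counted reads in replicates 1, 2 and 3 of shNC, against 516, 402 and 491 in the same order of shNUF2. All 3 shNUF2 libraries lay far above every shNC library, with shNUF2 replicate 1 the highest. The normalized count was 6.22 ± 0.629 CPM with shNC and 34.0 ± 3.85 CPM with shNUF2 (SD, n = 3 each), a ratio of 5.46. The log2 fold change of SPRY4 was 2.45 with a standard error of 0.12 (95% interval 2.21 to 2.69, adjusted p = 6e-16 from the edgeR test after Benjamini-Hochberg adjustment across the 12874 genes). It was higher than the log2 fold change of 98.2% of all genes tested.

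SPRY2 (ENSG00000136158, minus strand of chromosome 13 from 80335976 to 80341126), which binds the ubiquitin ligase CBL and the adaptor GRB2, gave 94, 118 and 135 counted reads under shNC against 295, 210 and 262 under shNUF2. The groups did not overlap, and shNUF2 replicate 1 was again the highest library. The normalized count of SPRY2 was 7.28 ± 0.624 CPM with shNC and 18.5 ± 3.01 CPM with shNUF2 (SD, n = 3 each). The log2 fold change was 1.34 with a standard error of 0.14 (95% interval 1.06 to 1.62, adjusted p = 2.06e-09 from the edgeR test).

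SPRY1 (ENSG00000164056, plus strand of chromosome 4 from 123396795 to 123403760), a further Sprouty inhibitor, had few reads, 23, 30 and 34 under shNC against 96, 81 and 52 under shNUF2. The groups did not overlap, but shNUF2 replicate 3 lay well below the other shNUF2 libraries, at 3.46 CPM against 7.12 and 6.23 CPM. The mean was 1.82 ± 0.185 CPM with shNC and 5.60 ± 1.91 CPM with shNUF2 (SD, n = 3 each). For SPRY1 the log2 fold change was 1.60 with a standard error of 0.27 (95% interval 1.05 to 2.15, adjusted p = 9.18e-06 from the edgeR test). It was no longer called with limma on log2 of FPKM plus 1, at 0.69 on that scale, which understates changes of genes at such low levels.

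Levels of different genes were compared as deposited FPKM, which accounts for gene length. Summed over SPRY1, SPRY2 and SPRY4, the Sprouty level was 3.53, 3.69 and 3.95 FPKM in the shNC libraries and 14.1, 11.3 and 11.1 FPKM in the shNUF2 libraries, a ratio of means of 3.27. The make-up of this sum also differed between the groups. SPRY2 gave 61.6 ± 2.56% of it with shNC and 46.6 ± 1.9% with shNUF2, whereas SPRY4 gave 25.9 ± 3.32% with shNC and 42.1 ± 1.91% with shNUF2 (SD, n = 3 each, p = 0.10 for either share in an exact two-sided permutation test, where 3 against 3 allows no smaller p). SPRY1 gave 12.5 ± 0.762% and 11.4 ± 3.22%, and its groups overlapped. The FPKM ratio of SPRY4 to SPRY2, which does not depend on the scaling between libraries, was 0.506, 0.37 and 0.392 with shNC and 0.857, 0.938 and 0.919 with shNUF2 (exact two-sided permutation test, p = 0.10). This ratio was higher in each shNUF2 library than in any shNC library. The ratios between genes were chosen after the values of the single genes were seen.

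**Figure D2:**
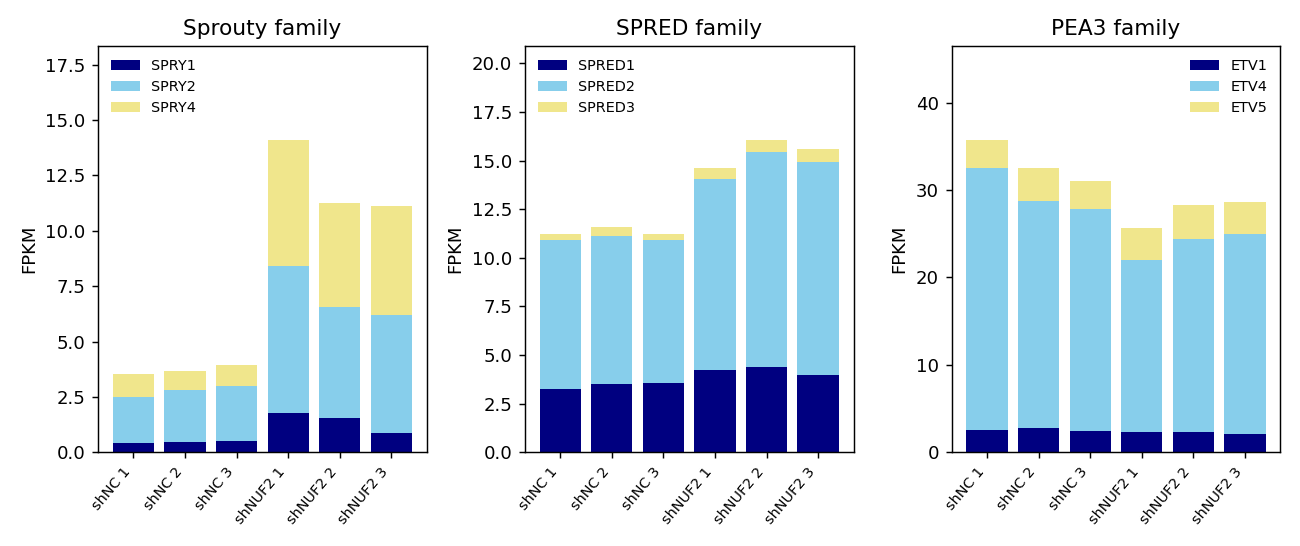
Stacked bars of the deposited FPKM of the Sprouty, SPRED and PEA3 genes in each library, with 1 colour per gene. The Sprouty bars reach 3.53 to 3.95 FPKM with shNC and 11.1 to 14.1 FPKM with shNUF2, with a larger SPRY4 part, while the PEA3 bars are made mostly of ETV4 in every library.

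The 3 SPRED genes were higher with shNUF2 by the adjusted p, but none was called with the fold threshold. SPRED proteins bind neurofibromin, the product of NF1, and bring this RAS inhibitor to the membrane. SPRED2 (ENSG00000198369, minus strand of chromosome 2 from 65310851 to 65432637) had the highest level of the 3, with 596, 658 and 688 counted reads under shNC against 744, 796 and 920 under shNUF2. After normalization these were 41.0 ± 0.973 CPM and 59.2 ± 3.47 CPM (SD, n = 3 each), and each shNUF2 library lay above each shNC library. The log2 fold change of SPRED2 was 0.53 with a standard error of 0.07 (adjusted p = 8e-08 from the edgeR test), and its 95% interval, 0.39 to 0.67, lay below 1.

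SPRED1 (ENSG00000166068, plus strand of chromosome 15 from 38252836 to 38357249) had 357, 430 and 470 counted reads under shNC against 453, 444 and 466 under shNUF2. The raw reads of the groups overlapped, and the normalized counts did not, at 25.1, 26.9 and 27.3 CPM against 33.6, 34.2 and 31.0 CPM. SPRED1 thus had a log2 fold change of 0.31 with a standard error of 0.08 (95% interval 0.14 to 0.48, adjusted p = 0.00167 from the edgeR test).

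SPRED3 (ENSG00000188766, plus strand of chromosome 19 from 38388421 to 38399587) had the lowest FPKM of the members, with 26, 42 and 30 counted reads under shNC against 47, 47 and 61 under shNUF2. The highest shNC library, replicate 2, came close to the shNUF2 libraries, at 2.63 CPM against 3.49 CPM in the lowest of them. Its log2 fold change was 0.85 with a standard error of 0.26 (adjusted p = 0.00534 from the edgeR test), and the 95% interval of 0.32 to 1.38 included the fold threshold. Over the alternatives the value ranged from 0.26, with limma on log2 of FPKM plus 1, to 1.06 without shNC replicate 2, which alone passed the threshold.

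The SPRED sum was 11.2, 11.6 and 11.2 FPKM with shNC and 14.6, 16.1 and 15.6 FPKM with shNUF2, a ratio of means of 1.36. SPRED2 made up 66.4 ± 1.52% of it with shNC and 68.7 ± 1.65% with shNUF2 (SD, n = 3 each), and these shares overlapped between the groups. With shNC the SPRED sum was 11.4 ± 0.211 FPKM and the Sprouty sum 3.72 ± 0.209 FPKM, and with shNUF2 they were 15.4 ± 0.747 and 12.2 ± 1.68 FPKM (SD, n = 3 each).

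PHLDA1 (ENSG00000139289, minus strand of chromosome 12 from 76025447 to 76033932) had 1255, 1008 and 1346 counted reads under shNC against 3301, 3082 and 3729 under shNUF2. The shNUF2 libraries were close together and far above the shNC libraries, of which replicate 2 was the lowest. The normalized count was 76.5 ± 12.7 CPM with shNC and 243 ± 5.57 CPM with shNUF2 (SD, n = 3 each), a ratio of 3.18. The 95% interval of its log2 fold change was 1.53 to 1.81, and the adjusted p was 2.54e-17 from the edgeR test, the smallest among the members. Its relative PHLDA2, an imprinted gene of the same domain family, was called higher at 1.28, and PHLDA3, a target of p53 named after its values were seen, had a log2 fold change of 0.21, with overlapping groups.

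None of the 3 PEA3 factors was called in either direction. ETV4 (ENSG00000175832, minus strand of chromosome 17 from 43527844 to 43579620), the most abundant PEA3 gene in every library, had 1488, 1438 and 1514 counted reads under shNC against 957, 1011 and 1219 under shNUF2. Its normalized counts were 105, 90.0 and 88.0 CPM with shNC and 71.0, 77.8 and 81.1 CPM with shNUF2, without overlap but with 81.1 and 88.0 CPM in the closest libraries. The log2 fold change of ETV4 was -0.29 with a standard error of 0.06 (95% interval -0.43 to -0.16, adjusted p = 0.000201 from the edgeR test), so that it was lower by the adjusted p and not called with the fold threshold.

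ETV1 (ENSG00000006468, minus strand of chromosome 7 from 13891229 to 13991425) had 346, 411 and 400 counted reads under shNC against 300, 292 and 313 under shNUF2. The normalized counts were 24.4 ± 1.24 and 21.8 ± 0.901 CPM (SD, n = 3 each). Its log2 fold change of -0.16 did not pass the test (adjusted p = 0.121 from the edgeR test), and the 95% interval was -0.35 to 0.03.

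ETV5 (ENSG00000244405, minus strand of chromosome 3 from 186046314 to 186110318) had 262, 343 and 314 counted reads under shNC against 293, 298 and 324 under shNUF2. Its normalized counts did not overlap between the groups, with 21.5 CPM in the highest shNC and the lowest shNUF2 library alike to 3 digits, and its FPKM values did overlap. Its log2 fold change of 0.19 (95% interval -0.02 to 0.39) did not pass the test (adjusted p = 0.0986 from the edgeR test). Without shNC replicate 2, the highest shNC library, ETV5 passed the test at 0.27 (adjusted p = 0.0369 from the edgeR test; 0.0369 to 0.296 over all alternatives). For ETV1 and ETV5 these intervals from all 6 libraries hold only differences smaller than the fold threshold.

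Summed over ETV1, ETV4 and ETV5, the PEA3 level was 35.8, 32.6 and 31.0 FPKM with shNC and 25.7, 28.3 and 28.6 FPKM with shNUF2, a ratio of means of 0.832. ETV4 made up 81.9 ± 1.93% of the sum with shNC and 78.1 ± 1.41% with shNUF2, and ETV5 10.3 ± 1.31% and 13.7 ± 0.749% (SD, n = 3 each). The FPKM ratio of SPRY4 to ETV4 was 0.0355 ± 0.00257 with shNC and 0.239 ± 0.043 with shNUF2 (SD, n = 3 each), a 6.75-fold difference between the means (exact two-sided permutation test, p = 0.10).

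**Figure D3:**
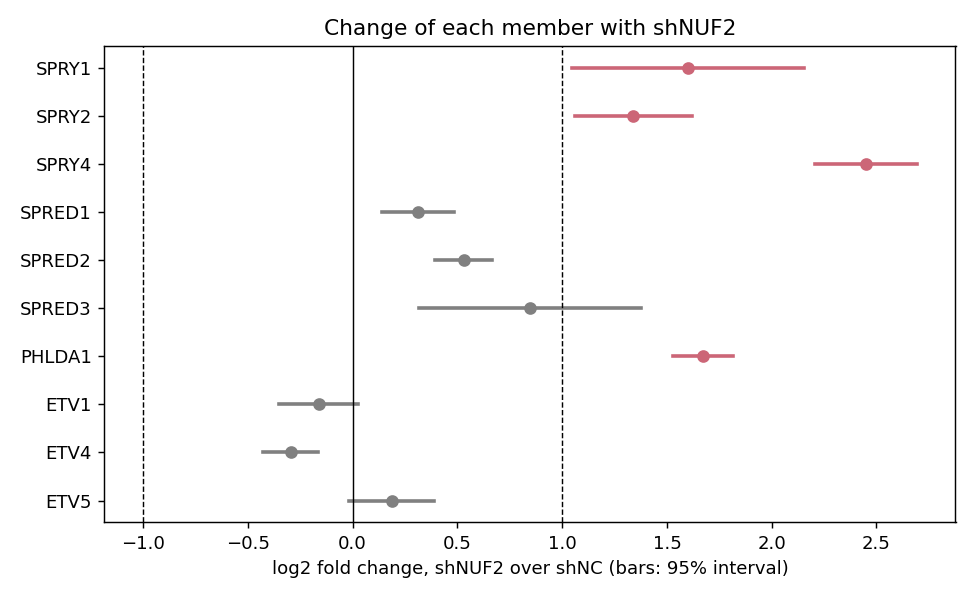
Log2 fold change of each gene between shNUF2 and shNC (points) with its 95% interval (bars), with dashed lines at the fold threshold of 1 and -1. The intervals of SPRY1, SPRY2, SPRY4 and PHLDA1 (red) lie above 1, that of SPRED3 spans it, and those of ETV1 and ETV5 include 0.

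The order of the members by level per length differed between the groups. With shNC the order of mean FPKM was ETV4 at 27.1, PHLDA1 at 9.60, SPRED2 at 7.55, SPRED1 at 3.46, ETV5 at 3.40, ETV1 at 2.57, SPRY2 at 2.29, SPRY4 at 0.961, SPRY1 at 0.466 and SPRED3 at 0.357. SPRED1 and ETV5, ETV1 and SPRY2, and SPRY1 and SPRED3 were neighbours whose libraries overlapped. With shNUF2, PHLDA1 came first at 29.8 FPKM and ETV4 second at 21.5 FPKM. SPRED2 followed at 10.6 FPKM, and SPRY2 and SPRY4, at 5.67 and 5.11 FPKM with overlapping libraries, stood above SPRED1 at 4.19, ETV5 at 3.77 and ETV1 at 2.24 FPKM. The libraries of SPRED1 and ETV5 overlapped here too. SPRY1 and SPRED3 remained the lowest at 1.39 and 0.626 FPKM.

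The cascade upstream of these genes showed differences in both directions. Of 26 listed genes from the adaptor GRB2 through RAS, RAF and MEK to ERK and its RSK kinases, with RAS inhibitors, 25 were tested. By the adjusted p, 12 of the 25 were higher and 8 lower, against 33.9% and 33.8% of all genes. Only 1 of the 25 was called higher, against 9.41% of all genes, namely RASA2, a RAS GTPase-activating protein, at a log2 fold change of 1.02 (standard error 0.08, adjusted p = 1.81e-11 from the edgeR test), close to the threshold. The count was 0 with library totals alone, with no filter on low counts, with limma at either pseudocount and without shNC replicate 2, shNC replicate 3 or shNUF2 replicate 1. It was 2 with DESeq2 size factors, with the DESeq2 test, with at least 1 CPM in every library and without shNC replicate 1. RRAS, a RAS-related GTPase named after its values were seen, lay just under the threshold at 0.99 (adjusted p = 1.65e-13 from the edgeR test). The median log2 fold change of the 25 genes was -0.04, with a range of -0.51 to 1.02. The lowest value, -0.51, was that of NF1, whose product SPRED proteins bind, with 2726, 3261 and 3290 counted reads under shNC against 1920, 1717 and 2073 under shNUF2. NF1 was named here after its values were seen.

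Other genes that respond to ERK were higher more often than not. Of 15 listed genes 14 were tested, 7 were called higher and 0 lower, against 9.41% and 4.16% of all genes, with a median log2 fold change of 1.05, against -0.01 over all genes tested. The called genes with the smallest p were FOSL1, an AP-1 subunit, at 2.32 with a standard error of 0.05, DUSP5 and DUSP6, phosphatases of ERK, at 2.37 and 2.33, and EMP1, a membrane protein, at 1.85. By the adjusted p 11 genes were higher (33.9% of all genes) and 2 were lower (33.8%), CCND1, the cyclin D1 gene, at -0.70 and EGR1, an immediate early transcription factor, at -0.60, both named after their values were seen. Some genes of this list were known to differ in these libraries when it was drawn up, so that its count is not independent evidence of a direction.

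Among 14 genes of proteins that bind or modify Sprouty and SPRED proteins, with the relative SPRY3, 13 were tested, and the list shares genes with the cascade list, NF1 and GRB2 among them. CAV1, the caveolin that binds Sprouty proteins, was called higher at 1.67, and SPRY3 at 1.37 with only 19, 26 and 37 counted reads under shNC against 55, 47 and 85 under shNUF2. With limma at either pseudocount only 1 partner was called. The other 11 were not called, and 9.41% of all genes were called higher, so that 2 of 13 is close to the background. By the adjusted p 9 of the 13 were higher and 2 lower, the latter being NF1 and PPP2CA, the catalytic subunit of phosphatase PP2A, at -0.17, both named after their values were seen (33.9% and 33.8% of all genes). The median of the list was 0.22, against -0.01 over all genes tested.

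Of 24 other ETS family genes, 17 were tested and 3 were called higher (9.41% of all genes), ETS1 at 2.19, ETS2 at 1.51 and ETV3, a repressor of the family, at 1.24. ETS1 had 608, 614 and 668 counted reads under shNC against 2645, 2420 and 2503 under shNUF2, with no overlap. The median of the 17 was 0.11, and by the adjusted p 8 were higher (33.9% of all genes) and 2 lower (33.8%), GABPA at -0.40 and ELF2 at -0.23, named after their values were seen. ETV1, ETV4 and ETV5 are not part of this list.

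Of the 9 listed regulators of the PEA3 factors, all 9 were tested and 3 were called higher, against 9.41% of all genes. TRIB1, a pseudokinase that binds the ubiquitin ligase COP1, had 447, 472 and 589 counted reads under shNC against 1522, 1403 and 1556 under shNUF2, a log2 fold change of 1.77. ATXN1, a partner of CIC, had 66, 74 and 75 counted reads under shNC against 249, 225 and 235 under shNUF2, a log2 fold change of 1.91. TRIB2, a relative of TRIB1, was called from 4, 2 and 0 counted reads under shNC against 13, 12 and 24 under shNUF2, too few for a firm size. It passed the filter on low counts through its shNUF2 libraries alone. With at least 1 CPM asked of every library the count of regulators called was 2, and with limma on log2 of FPKM plus 1 it was 1. CIC itself, which represses the PEA3 and several Sprouty and SPRED genes when ERK is inactive, had 1516, 1528 and 1757 counted reads under shNC against 1702, 1518 and 1831 under shNUF2, a log2 fold change of 0.26 (adjusted p = 6.51e-05 from the edgeR test). By the adjusted p 5 of the 9 regulators were higher and 2 lower (33.9% and 33.8% of all genes), the latter being COP1 at -0.28 and CUL4A at -0.14. CIC, COP1 and CUL4A were named after their values were seen. Across these lists, as for the members, 0 genes were called lower, with edgeR and also with DESeq2 and limma. In edgeR 4.16% of all genes were called lower. The counts lower at an unadjusted p under 0.05, against 35.2% of all genes, were 10 in the cascade, 2 among the other ERK-response genes, 2 among the partners, 3 among the ETS genes, 2 among the regulators and 0 among the PHLDA relatives.

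**Figure D4:**
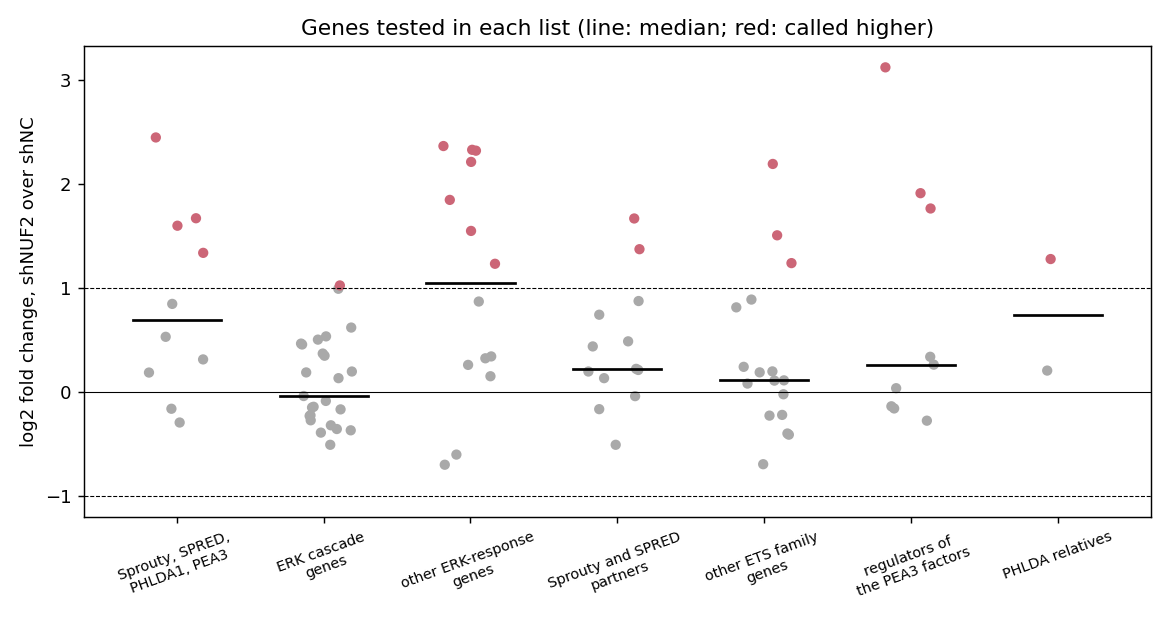
Log2 fold change between shNUF2 and shNC of each gene tested (points), for the 10 genes described and the 6 lists around them, with a line at the median of each list and dashed lines at 1 and -1. Red points were called higher. The other ERK-response genes have the highest median, 1.05, and the cascade genes lie between -0.51 and 1.02. The highest point among the regulators, TRIB2, rests on 4 reads or fewer in each shNC library.

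Some reads of the members could belong to neighbours. In GENCODE release 29, SPRED2 overlaps the sense-intronic gene AC012370.1 on the same strand, ETV5 overlaps DGKG and a small RNA gene on the same strand and the antisense gene ETV5-AS1, ETV4 overlaps DHX8 on the opposite strand, SPRY4 overlaps SPRY4-AS1 and a pair of small RNA genes on the opposite strand, and PHLDA1 overlaps a pair of antisense genes. The kit keeps the strand, but strand cannot separate genes on the same strand, and the strand setting of the counting is not given in the sources used here.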

How the data were processed

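RNA-seq libraries of OVCAR3 cells, 3 with shNC and 3 with shNUF2, were grouped by their labels. The authors deposited raw read counts per gene and FPKM, which is the count divided by gene length and library total (largest relative difference 2.71e-07). The submitters' processing notes name cutadapt, HISAT, HTSeq and GRCh38.p13. Versions, the annotation release and the strand setting are not given in the sources used here.

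Counts were filtered with filterByExpr, scaled by TMM and compared with edgeR 4.0.16 (quasi-likelihood test, all 6 libraries, no covariate) in R 4.3.3, leaving 12874 genes. Standard errors come from the fold change and the F statistic, and 95% intervals use the t distribution. Adjustment of p-values was by Benjamini-Hochberg across these genes. Single ratios and shares were compared by exact permutation in scipy 1.17.1. Scripts were tested on simulated counts. The members, gene lists and motifs were chosen with earlier results of these data known. Named genes were the members, NUF2 and, of each list, up to 4 called genes per direction with the smallest p. Genes outside this rule are marked, except the cell type markers, to which it was not applied. Protein sequences were not used here, and some genes of the lists are not reported here by name. Alternatives were other scalings, filters and tests (DESeq2 1.42.0, limma 3.58.1 on log2 FPKM), a replicate block and each library left out.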

Additional observations from a re-analysis of the deposited data

How the results depend on the processing

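The count of members called higher was 4 under each other scaling, filter and test and under the replicate block, except 3 with limma on log2 of FPKM plus 1, where SPRY1 was lost. With a library left out it ranged from 4 to 5. No member changed sign in any alternative run. The log2 fold change of SPRY4 ranged from 1.64 to 2.51, that of SPRY2 from 1.01 to 1.42, that of PHLDA1 from 1.55 to 1.78 and that of SPRY1 from 0.69 to 1.86. ETV5 had an adjusted p of 0.0369 (without shNC replicate 2) to 0.296 and ETV1 of 0.0594 to 0.301 over the same alternatives, by edgeR, DESeq2 or limma. With the adjusted p and no fold threshold, 7 of the 10 members were higher and 1 lower, against 33.9% and 33.8% of all genes. The corresponding counts were 12 and 8 of 25 for the cascade and 11 and 2 of 14 for other ERK-response genes. They were 9 and 2 of 13 for partners and 8 and 2 of 17 for ETS genes. For regulators they were 5 and 2 of 9, and for PHLDA relatives 2 and 0 of 2. The cascade count of 1 rests on RASA2 near the threshold. It was 2 with DESeq2 size factors, with the DESeq2 test and with at least 1 CPM in every library, 0 with library totals alone, with no filter and with limma at either pseudocount, and 0 to 2 with a library left out (2 without shNC replicate 1, 0 without shNC replicate 2 or 3 or shNUF2 replicate 1). Partners fell to 1 with limma at pseudocounts of 1 and 0.1, regulators from 3 to 1 at a pseudocount of 1 and to 2 with at least 1 CPM in every library, and ETS genes rose to 5 with no filter. The cause was not tested.

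Libraries with the same replicate number did not deviate together (correlations of 0.02, 0.00 and -0.03 across genes), so that the numbers are not taken to pair them. With the replicate block, 4 members were called higher and 0 lower. Reads limit SPRY1 and SPRED3 most, with 23 to 34 and 26 to 42 reads in the shNC libraries.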
